A study of Mus musculus with 6 samples.

Results

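The core circadian clock genes considered here are Arntl, Clock, Npas2, Per1, Per2, Per3, Cry1, Cry2, Dbp and Csnk1e, 10 of the 32531 genes listed in each library, chosen by symbol. They were measured by TRAP-seq (translating ribosome affinity purification followed by sequencing) in the hypothalamus of untreated adult mice of the line Lhx5-EGFP/Rpl10a DT154. The line carries an EGFP-tagged ribosomal protein L10a, named for Lhx5, a LIM homeodomain transcription factor of the developing and adult hypothalamus. Immunopurified RNA (IP), pulled down with antibodies to EGFP, was sequenced in 3 libraries, and unbound RNA, called input in the sample titles, in 3 more. All 6 libraries are from this 1 line, so no animals without the transgene and no second line enter the comparison. No source used here gives an exact age, the sex, the time of day of dissection or whether libraries come from separate animals, so p-values measure the spread between these libraries only.

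The clock is a feedback loop of transcription found in nearly every cell. ARNTL (BMAL1) pairs with CLOCK or NPAS2 on E-box sequences and switches on the Per and Cry genes, whose proteins return to the nucleus and repress ARNTL and its partner. Casein kinase 1 epsilon, from Csnk1e, phosphorylates PER proteins and sets their lifetime, and DBP carries the rhythm to genes with D-box sequences, Per genes among them. In mammals the suprachiasmatic nucleus of the hypothalamus is the master clock, and other hypothalamic neurons and glia hold clocks of their own.

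Gene reads per library ran from 32471045 to 46293837. Lhx5, which names the line, stood at 54.9, 55.7 and 68.5 CPM (reads scaled to a total of 1000000 gene reads per library) in IP and at 2.10, 1.94 and 6.43 CPM in unbound RNA (18.1-fold higher in IP, edgeR adjusted p = 8.2e-04), higher in every IP than in every unbound library. Levels in summed CPM show what else differed between the groups: 20 pan-neuronal markers came to 27020 to 28600 in IP and 17850 to 20060 in unbound RNA, 10 astrocyte markers to 150.0 to 353.8 and 1477 to 2010, and 10 oligodendrocyte markers to 331.1 to 547.6 and 3819 to 7176. Unbound replicate 3 stood apart. Its 8 striatal projection neuron markers, a list chosen after the data were seen, summed to 191.4 CPM, against 2556 and 2048 CPM in unbound replicates 1 and 2. In IP the sum was also lowest in replicate 3, at 365.8 CPM against 723.5 and 689.8 CPM in replicates 1 and 2. Of 13 genes that mark the suprachiasmatic nucleus 12 were tested, and 4 were higher and 2 lower in IP, where 21.1% and 23.2% of all genes tested were. Their summed CPM was 420.1 to 559.8 in IP and 316.6 to 377.5 in unbound RNA, of which Zfhx3 alone made 262.1 to 401.8 and 122.8 to 260.8 CPM. Its neuropeptides did not go together: Vip lay at 0.410 to 0.944 CPM in IP and 1.03 to 5.53 CPM in unbound RNA and was lower, and Nms lay at 2.25 to 2.72 and 0.0981 to 0.441 CPM and was higher. Avp was at 5.09, 6.25 and 0.756 CPM in IP and 57.99, 40.03 and 0.0736 CPM in unbound RNA and did not pass. The transcription factor gene Six6 was at 0 in IP replicate 1 and unbound replicate 3. In bulk RNA, fewer cells of a type and less RNA per cell cannot be told apart.

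The stretches of DNA upstream of 4 members are shown because they hold the clock motifs that a search found in the 9 members with a RefSeq promoter window. Each window ran from 250 bases before to 50 after a RefSeq start (GRCm38.p6, the mm10 assembly). Searched on both strands were the E-box CACGTG, the related E-prime box CACGTT, the D-box TTATGTAA and the cyclic AMP element TGACGTCA, and capitals mark the matches (AACGTG is the E-prime box read on the other strand). Of all genes with a window, 8.09% hold the E-box, 5.44% the E-prime box, 1.11% the D-box and 2.03% the cyclic AMP element. No stretch overlaps an annotated exon.
Cry1, chr10:85185069-85185173, minus strand: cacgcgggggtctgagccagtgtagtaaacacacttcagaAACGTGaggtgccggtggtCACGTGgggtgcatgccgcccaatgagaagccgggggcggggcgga
Per1, chr11:69098743-69098828, plus strand: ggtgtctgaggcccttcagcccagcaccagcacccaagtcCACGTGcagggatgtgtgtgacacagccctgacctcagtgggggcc
Cry2, chr2:92434190-92434275, minus strand: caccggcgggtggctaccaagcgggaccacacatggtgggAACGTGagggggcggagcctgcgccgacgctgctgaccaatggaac
Per3, chr4:151044776-151044910, minus strand: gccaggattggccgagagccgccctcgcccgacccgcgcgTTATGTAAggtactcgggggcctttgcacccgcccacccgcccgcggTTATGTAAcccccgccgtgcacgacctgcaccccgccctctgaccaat

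Cyclic AMP elements were not found in these windows. Counted from the RefSeq start, the E-boxes begin at -60 in Cry1 and -166 in Per1, the E-prime boxes at -79 in Cry1 and -166 in Cry2, and the D-boxes at -205 and -158 in Per3. No motif of the search is in the windows of Arntl, Clock, Npas2, Dbp or Csnk1e, and Per2 had no window and was not searched. Only exact matches within the windows were sought, so variant sites and sites elsewhere in or near a gene are not covered. The Per1 start used lies inside the longer gene of the GENCODE annotation. As given below, Cry1 was higher in IP, Per3 lower, and Per1 and Cry2 did not pass.

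The 10 core genes did not move as a block between the RNA bound to tagged ribosomes and the unbound RNA. Cry1 and Csnk1e were higher in IP, by 1.66-fold and 1.51-fold, Per3 was 1.52-fold lower, and the other 7 did not pass the test. An adjusted p under 0.05 in edgeR counted as a pass, over the 16991 genes tested, and all 10 members were among them. Over all genes 21.1% passed as higher and 23.2% as lower, so 2 and 1 of 10 are not more than the background. The median log2 fold change of the members was -0.06, beside -0.01 over all genes tested. CPM values of the 2 groups did not overlap for 5 members, with Cry1 and Csnk1e above in IP (23.0% of all genes tested) and Per2, Per3 and Dbp below (31.9%). CPM carry no TMM scaling factors, which the fold changes use (0.9583 to 0.972 in IP, 1.023 to 1.045 in unbound libraries). Divided by those factors, the values of Per2 and of Dbp overlap between the groups.

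**Figure D1:**
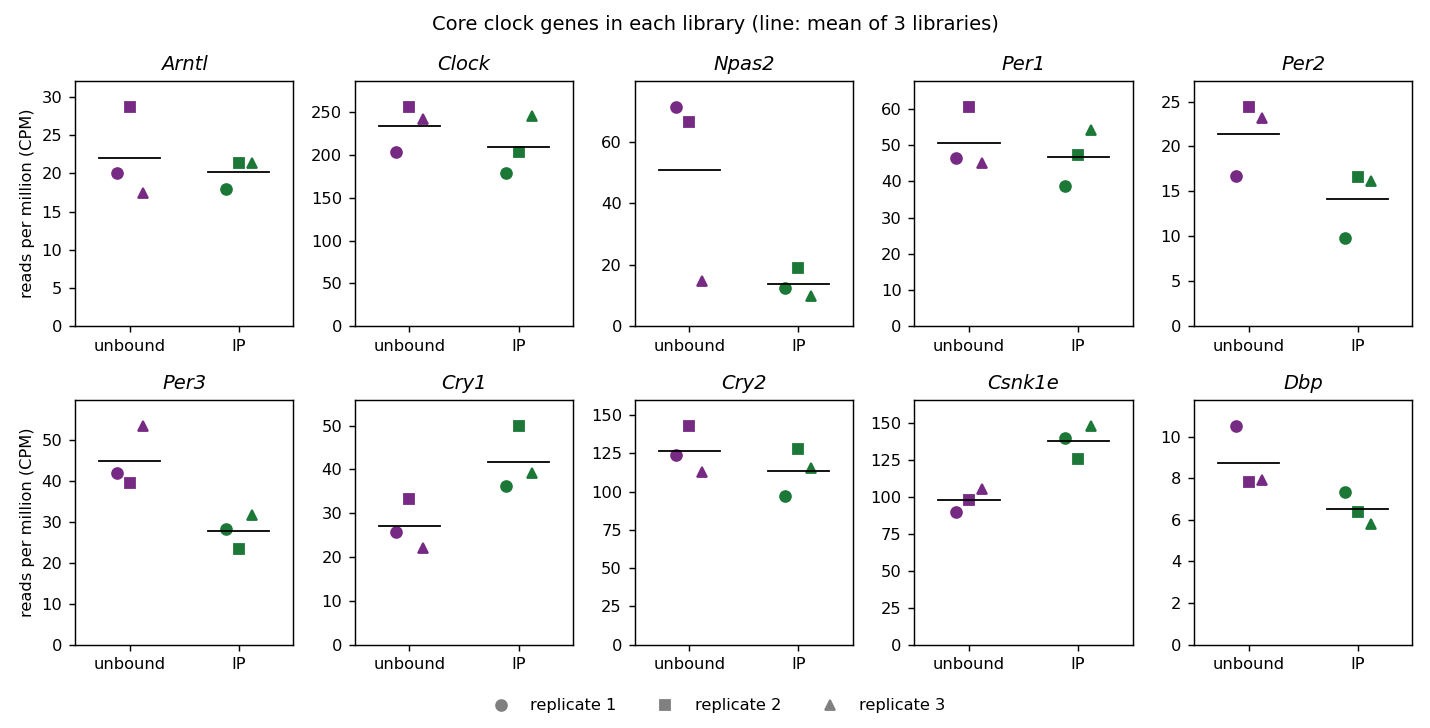
Level of each core clock gene in CPM (y axis, from 0) in the 3 unbound and 3 IP libraries (x axis). Symbols are single libraries by replicate number and lines are group means. In these CPM, which carry no TMM factors, Cry1 and Csnk1e lie higher in all IP libraries, and Per2, Per3 and Dbp lower. Npas2 in unbound replicate 3 sits with the IP libraries at 14.6 CPM.

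Among the activators, Clock (chromosome 5, 76209868 to 76304792, minus strand) encodes the DNA-binding partner of ARNTL. Its level was 178.5, 203.9 and 246.1 CPM in IP replicates 1 to 3 and 203.4, 255.9 and 242.7 CPM in unbound replicates 1 to 3. The groups overlapped, and the log2 fold change was -0.06 (95% interval -0.43 to 0.30, edgeR adjusted p = 0.776). Arntl (chromosome 7, 113207465 to 113314126, plus strand), the subunit shared by both forms of the activator, stood at 17.9, 21.4 and 21.4 CPM in IP and 20.1, 28.7 and 17.4 CPM in unbound RNA. Its highest and its lowest level were both in unbound libraries, and its log2 fold change was -0.02 (95% interval -0.49 to 0.44, edgeR adjusted p = 0.932).

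Npas2 (chromosome 1, 39193731 to 39363236, plus strand) encodes the alternative partner of ARNTL, known for its high level in the forebrain. It differed most between libraries, at 12.4, 18.8 and 9.87 CPM in IP and 71.3, 66.5 and 14.6 CPM in unbound RNA. Unbound replicates 1 and 2 were high, while unbound replicate 3 fell inside the IP range. With all libraries the log2 fold change was -1.78 ± 0.60 (SE) and did not pass (edgeR adjusted p = 0.0508). It passed without unbound replicate 3, the library that fell inside the IP range (-2.23, edgeR adjusted p = 9.3e-05), and in the fit with a replicate block (-1.55, edgeR adjusted p = 0.0234). Of the 6 fits that left out 1 library it passed in that 1 alone, and of all 16 alternative fits in 7. It did not pass with lane 2 alone (-1.85, edgeR adjusted p = 0.140) or with limma-voom (-1.555, limma-voom adjusted p = 0.144).

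All 8 striatal projection neuron genes were lowest among unbound libraries in replicate 3, but the list was chosen after the data were seen. Their shared low level there is therefore no test. Of the 8, 1 (Rgs9) passed as lower in IP, where 23.2% of all genes tested did. The log2 fold changes of the 8 ran from -3.09 to 1.08 (Tac1, which did not pass), with a median of -1.955. Ppp1r1b, a phosphoprotein of these neurons, stood at 587.2, 509.3 and 19.99 CPM in unbound replicates 1 to 3 and 43.1, 58.6 and 19.7 CPM in IP. Pde10a, a striatal phosphodiesterase gene, was at 675.8, 619.8 and 66.3 CPM in unbound RNA and 137.3, 159.3 and 99.9 CPM in IP. Of the wider clock genes, Usp2, a deubiquitinase with clock targets, also had its lowest unbound level there, at 74.9, 83.1 and 35.7 CPM against 20.6, 29.4 and 17.8 CPM in IP, without overlap. The part of striatal tissue in the Npas2 and Usp2 values was not tested.

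**Figure D2:**
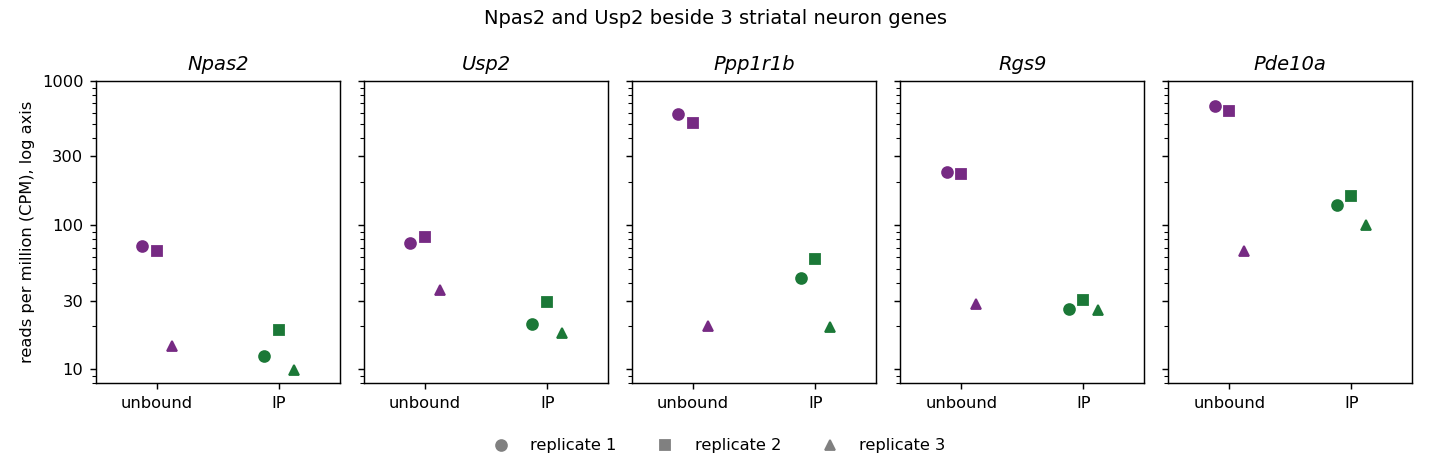
Level in CPM (y axis, log scale) of Npas2, Usp2 and the striatal neuron genes Ppp1r1b, Rgs9 and Pde10a in each library. Symbols give the replicate number. In all 5 genes unbound replicate 3 (triangle) lies below the other unbound libraries, for Ppp1r1b at 19.99 CPM against 509.3 and 587.2 CPM.

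The repressors split. Cry1 (chromosome 10, 85131700 to 85185064, minus strand), a strong repressor of the CLOCK and ARNTL pair, stood at 36.1, 49.9 and 39.3 CPM in IP and 25.7, 33.2 and 22.1 CPM in unbound RNA. Every IP library was above every unbound library, with means of 41.8 ± 7.24 and 27.0 ± 5.69 CPM (SD, n = 3) and a log2 fold change of 0.73 ± 0.19 (SE, edgeR adjusted p = 0.0138). The call was lost without IP replicate 2 (0.59, edgeR adjusted p = 0.0551) and without unbound replicate 1 (0.72, edgeR adjusted p = 0.050). Its paralog Cry2 (chromosome 2, 92403646 to 92434043, minus strand) was at 97.0, 127.8 and 115.8 CPM in IP and 123.9, 143.1 and 112.6 CPM in unbound RNA. The Cry2 groups overlapped, with a log2 fold change of -0.06 (95% interval -0.40 to 0.29, edgeR adjusted p = 0.785). The difference between the paralogs was not itself tested.

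Per3 (chromosome 4, 151003652 to 151044665, minus strand), a PER protein with a lesser part in the core loop, stood at 28.1, 23.3 and 31.7 CPM in IP and 41.8, 39.6 and 53.4 CPM in unbound RNA. All IP libraries were lower, with means of 27.7 ± 4.20 and 44.9 ± 7.45 CPM (SD, n = 3) and a log2 fold change of -0.60 ± 0.17 (SE, edgeR adjusted p = 0.0209). The call was lost without IP replicate 1 (edgeR adjusted p = 0.0672) and without IP replicate 2 (edgeR adjusted p = 0.0883), at -0.60 and -0.49.

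Per2 (chromosome 1, 91415982 to 91459324, minus strand), a PER protein required for sustained rhythms, was at 9.85, 16.6 and 16.1 CPM in IP and 16.7, 24.4 and 23.2 CPM in unbound RNA. In CPM the groups did not overlap, though IP replicate 2 nearly reached unbound replicate 1, and with the TMM factors of the fit they do overlap. Its log2 fold change of -0.50 ± 0.24 (SE) did not pass (edgeR adjusted p = 0.127), and passed with a replicate block (-0.51, edgeR adjusted p = 0.0268). Per1 (chromosome 11, 69095217 to 69109960, plus strand), which is also induced by light and by cyclic AMP, was at 38.7, 47.2 and 54.2 CPM in IP and 46.4, 60.5 and 45.1 CPM in unbound RNA. The Per1 groups overlapped, at a log2 fold change of -0.02 (95% interval -0.41 to 0.37, edgeR adjusted p = 0.943).

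Csnk1e (chromosome 15, 79417856 to 79455566, minus strand) had the smallest adjusted p of the members. It stood at 139.9, 125.3 and 148.0 CPM in IP and 89.5, 98.0 and 105.4 CPM in unbound RNA, with means of 137.7 ± 11.5 and 97.7 ± 7.99 CPM (SD, n = 3). Every IP library was above every unbound one, with a log2 fold change of 0.59 ± 0.13 (SE, edgeR adjusted p = 0.00694), and the call held when any 1 library was left out (0.57 to 0.66). Gm16059 is an antisense gene over 4.05% of the exonic bases of Csnk1e. Since the annotation, strand setting and overlap mode are not given, reads there may be counted with Csnk1e or set aside as ambiguous.

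The output gene Dbp (chromosome 7, 45705088 to 45710203, plus strand) stood at 7.37, 6.38 and 5.79 CPM in IP and 10.5, 7.80 and 7.90 CPM in unbound RNA. In CPM the groups did not overlap, but with the TMM factors of the fit they do. The log2 fold change of -0.33 ± 0.21 (SE) did not pass (edgeR adjusted p = 0.238). Sphk2 lies on the opposite strand over 18.0% of the exonic bases of Dbp. Reads there may likewise be counted with Dbp or set aside as ambiguous, as reads that match more than 1 gene. Ambiguous reads made up 1.58% to 1.64% of reads in IP and 7.08% to 9.02% in unbound libraries, and their part in the Dbp value was not tested. Dbp and Arntl peak at opposite times of day in many tissues, and their ratio within a library does not depend on its scaling. With 0.5 added to each count, the log2 ratio of Dbp to Arntl reads was -1.28, -1.74 and -1.88 in IP and -0.93, -1.88 and -1.14 in unbound RNA. The groups overlapped, and their means differed by -0.32 (exact two-sided permutation p = 0.3, where 0.1 is the smallest that 3 against 3 allows).

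Cry1 and Csnk1e passed with 2 other scalings over all genes, RLE size factors (edgeR adjusted p = 0.0170 and 0.00860) and library size alone (edgeR adjusted p = 0.0276 and 0.0158), but not with scaling on neuronal genes. When libraries were scaled on the 20 pan-neuronal markers, the median of all genes moved to -0.66, and 0 members passed as higher (3.23% of all genes) and 8 as lower (48.8%), all but Cry1 (0.08) and Csnk1e (-0.05). Relative to the median of all genes, Cry1 was at 0.74 with TMM scaling and 0.73 with pan-neuronal scaling, Csnk1e at 0.60 and 0.61, and Per3 at -0.59 in both. The pan-neuronal markers themselves had a median log2 fold change of 0.60 under TMM, near the values of Csnk1e and Cry1. Of the 20, 14 passed as higher (21.1% of all genes), 1, Map2 (-0.66), as lower (23.2%), and 5 did not pass. The scaling used their summed reads, in which Snap25 and Vsnl1 weighed most. Snap25 was at 11030 to 12430 CPM in IP and 7740 to 9146 CPM in unbound RNA. Vsnl1 was at 5105 to 5397 and 1841 to 2715 CPM. With a replicate block 2 members passed as higher (23.3% of all genes) and 3 as lower (23.6%), and without unbound replicate 3 2 were higher (24.0%) and 2 lower (25.8%). In the libraries of sequencing lane 2 alone (replicates 1 and 3), Cry1 was at 0.75 (edgeR adjusted p = 0.0441), Csnk1e at 0.65 (edgeR adjusted p = 0.0605) and Per3 at -0.58 (edgeR adjusted p = 0.103). Lane 4 holds 1 library a group and gives no test.

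**Figure D3:**
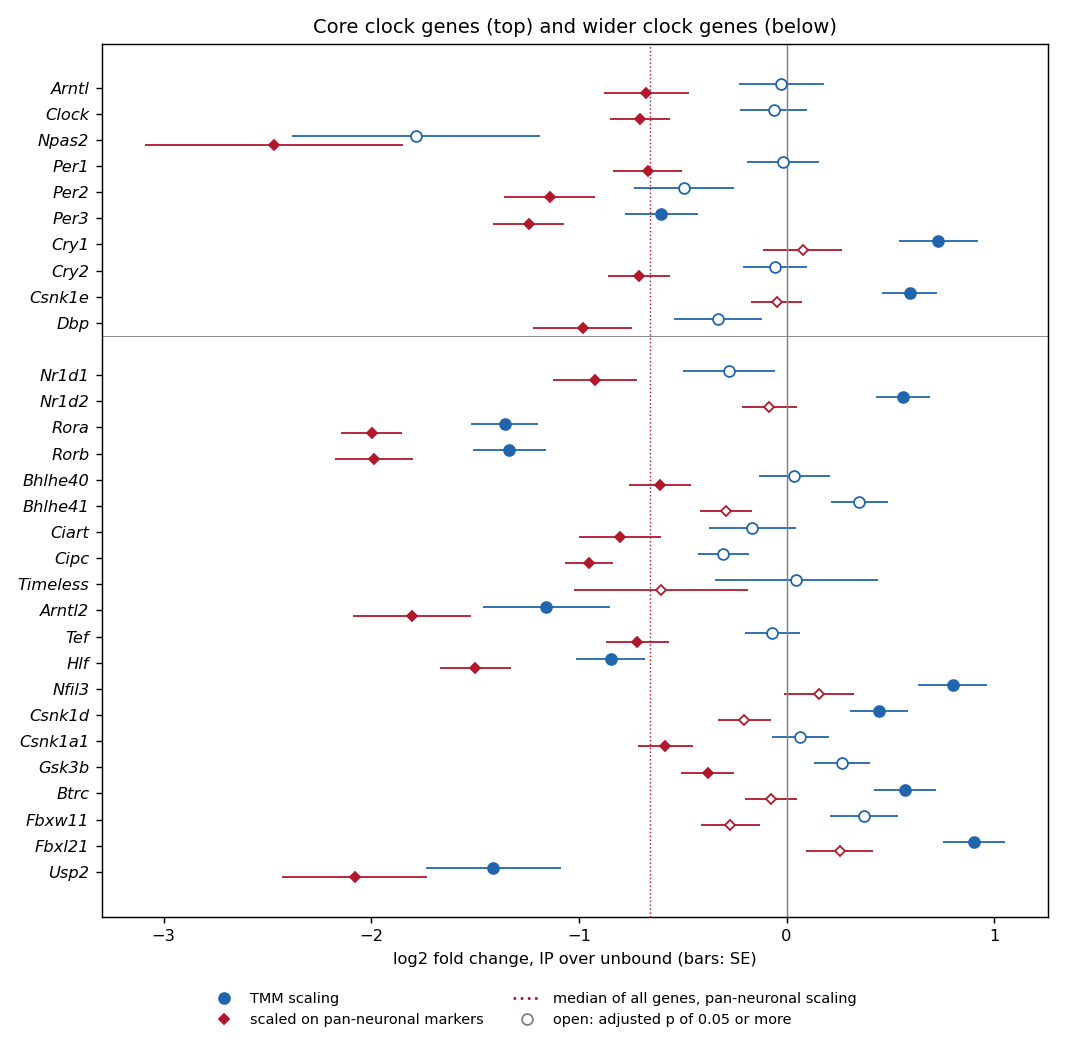
Log2 fold change of IP over unbound (x axis, bars are SE) for the 10 core and 20 of the 22 wider clock genes (y axis) with TMM scaling (circles) and with pan-neuronal scaling (diamonds). Filled symbols passed at an adjusted p under 0.05. The second scaling moves all genes down alike, to a median of -0.66 over all genes (dotted line), and no gene shown passes as higher under it.

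Per kb of exon, a rough scale for comparing genes, mean levels in IP fell in the order Csnk1e (27.7 ± 2.31 CPM per kb, SD, n = 3), Cry2 (26.2 ± 3.57), Clock (21.1 ± 3.44), Cry1 (13.8 ± 2.39), Per1 (8.31 ± 1.38), Arntl (6.54 ± 0.642), Per3 (4.62 ± 0.701), Dbp (3.54 ± 0.434), Npas2 (3.24 ± 1.09) and Per2 (2.43 ± 0.647). Ranges of neighbours in this order overlapped except between Clock and Cry1, Cry1 and Per1, and Arntl and Per3. In unbound RNA the order was Cry2 (29.1 ± 3.55 CPM per kb), Clock (23.6 ± 2.75), Csnk1e (19.6 ± 1.60), Npas2 (11.99 ± 7.43), Per1 (9.01 ± 1.52), Cry1 (8.92 ± 1.88), Per3 (7.49 ± 1.24), Arntl (7.14 ± 1.90), Dbp (4.76 ± 0.842) and Per2 (3.67 ± 0.703). There the ranges parted only between Cry2 and Clock, Csnk1e and Npas2, and Dbp and Per2. Csnk1e, Cry2 and Clock had the 3 highest means in both kinds of RNA, and Per2 the lowest. The lengths join the exons of all protein-coding transcripts of a gene in the basic set. Since the annotation used for counting is not given, the order between genes is approximate.

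**Figure D4:**
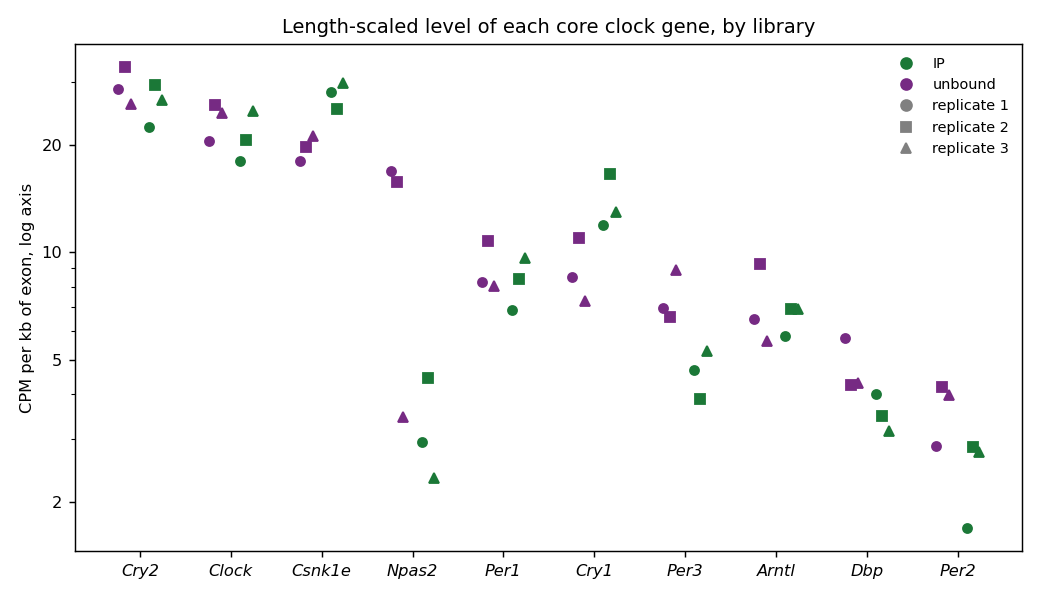
Level of each core clock gene in CPM per kb of exon (y axis, log scale), ordered by the unbound mean (x axis), with symbols for single libraries. Levels run from 33.0 for Cry2 in unbound replicate 2 to 1.69 for Per2 in IP replicate 1.

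The lowest and highest replicate numbers were the same in IP and unbound RNA for 2 of 10 members, as for 25.7% of all genes tested. Per2 had its lowest level in replicate 1 and its highest in replicate 2 in both groups. Nr1d1, the REV-ERB alpha repressor of Arntl, did the same, at 19.2, 32.3 and 24.2 CPM in IP and 26.0, 38.1 and 34.2 CPM in unbound RNA. Bhlhe40, a repressor that binds E-boxes, did so too, at 120.6, 162.5 and 145.6 CPM and 123.7, 173.3 and 150.8 CPM. Per2, Nr1d1 and Bhlhe40 thus peaked in replicate 2, the only number run in lane 4, where replicate and lane cannot be told apart. A peak there was not particular to them: Arntl, Cry1, Cry2, Cipc and Usp2, among others, were also highest in replicate 2 in both groups. Per3, the other member with the same lowest and highest number in both groups, was lowest in replicate 2 and highest in replicate 3. The lowest library had the same number in both groups for 4 of 10 members and 15 of 22 wider clock genes, and for 45.7% of all genes tested. The highest did for 7 of 10 members and 12 of 22 wider genes, and for 42.8% of all. Both did for 2 of 10 members, 10 of 22 wider genes and 25.7% of all, and these shares were not tested against each other. After removal of group means, the genes with a mean of at least 5 CPM most like Dbp over the 6 libraries were Lars2, Ier3ip1 and A230065H16Rik (Pearson's r of 0.999, 0.997 and 0.990), and those most like Arntl were Rsf1, Homer2 and Map2 (0.998, 0.998 and 0.995). These are the best of 11267 genes over 6 values and only describe these libraries.

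The wider clock genes, 22 in all and all tested, included 5 that rose and 6 that fell in IP, at a median log2 fold change of -0.02. These shares lie near the 21.1% and 23.2% of all genes tested, so the calls that follow describe single genes and not the list. In the nuclear receptor loop, which drives and represses Arntl, Nr1d2 rose (0.56, edgeR adjusted p = 0.00788). Its levels were 157.2, 137.9 and 161.4 CPM in IP and 110.0, 103.9 and 116.9 CPM in unbound RNA. The activators Rora and Rorb fell: Rora from 336.7, 350.9 and 434.4 CPM in unbound RNA to 126.0, 126.3 and 157.3 CPM in IP (-1.36, edgeR adjusted p = 4.6e-04), and Rorb by a like amount (-1.33, edgeR adjusted p = 6.7e-04). Both passed in all 16 alternative fits, with separate groups. Nr1d1 (-0.28) did not pass.

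Of the bZIP factors that share D-boxes with DBP, Hlf fell (-0.85, edgeR adjusted p = 0.00378), from 499.4, 616.7 and 442.3 CPM in unbound RNA to 240.4, 256.6 and 311.7 CPM in IP. Nfil3, the repressor at these sites, rose (0.80, edgeR adjusted p = 0.00501), from 9.42, 9.90 and 9.84 CPM to 16.1, 13.8 and 17.6 CPM. Tef, another activator of this kind, was at -0.07. The D-box activator Hlf and the D-box repressor Nfil3 therefore passed in opposite directions, and Dbp and Tef did not pass.

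Among the kinases and the enzymes of protein turnover, Csnk1d, the sister kinase of Csnk1e, rose (0.45, edgeR adjusted p = 0.0283), a call kept in 9 of 16 alternative fits. Btrc, an F-box protein that marks phosphorylated PER for degradation, rose as well (0.57, edgeR adjusted p = 0.0135). Fbxl21, an F-box gene, rose (0.91, edgeR adjusted p = 0.00175), at 41.2, 36.6 and 46.8 CPM in IP and 25.4, 21.3 and 24.4 CPM in unbound RNA. Usp2 fell (-1.41, edgeR adjusted p = 0.00925), a call lost without IP replicate 3 (-1.25, edgeR adjusted p = 0.0616), while Csnk1a1 (0.07), Gsk3b (0.27) and Fbxw11 (0.37) did not pass.

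Of the remaining repressors and partners only Arntl2, a paralog of Arntl at 2.12 to 4.13 CPM in IP and 6.49 to 9.52 CPM in unbound RNA, fell (-1.16, edgeR adjusted p = 0.0145). Bhlhe40 (0.04), Bhlhe41 (0.35), Ciart (-0.17), Cipc (-0.30) and Timeless (0.05) did not pass. With pan-neuronal scaling 0 of the 22 wider genes were higher and 14 lower (3.23% and 48.8% of all genes), with a replicate block 7 were higher and 7 lower (23.3% and 23.6% of all genes; Bhlhe41 at 0.36, Fbxw11 at 0.37 and Cipc at -0.30 then passed, edgeR adjusted p = 0.0381, 0.0235 and 0.0472), and without unbound replicate 3 there were 7 higher and 6 lower (24.0% and 25.8% of all genes). Rora, Rorb and Hlf fell beside the astrocyte and oligodendrocyte markers, of which 10 of 10 and 10 of 10 fell, with medians of -3.04 and -3.78. The defining astrocyte genes Aqp4 and Gfap were at 4.05 to 12.4 and 3.82 to 10.1 CPM in IP and at 76.3 to 159.2 and 39.6 to 78.7 CPM in unbound RNA, and the part of glial RNA in these falls was not tested.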

How the data were processed

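Per the submitters' processing notes, the tools were STAR 2.0.0e and HTSeq and the genome build mm10. The authors deposited raw read counts per gene symbol, 1 file per library. No source used here gives the annotation, strand setting or overlap mode. The 5 summary lines and the line named unknown were left out. Gene reads made up 45.0% to 47.7% of the reads listed.

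CPM values are reads scaled to 1000000 gene reads, without TMM factors. The test was that of edgeR 4.0.16 under R 4.3.3 (TMM scaling, filterByExpr with a minimum count of 10 and total of 15, robust quasi-likelihood fit on group alone, Benjamini-Hochberg over 16991 genes, threshold 0.05), which gives the adjusted p values unless another fit is named beside one. Those fits changed 1 choice each and adjusted over the genes they tested. SE is the log2 fold change over the square root of F. DESeq2 1.42.0 and voom of limma 3.58.1 served as alternatives. The fit was tested on simulated data in which the spread between libraries was set by assumption. Far fewer genes changed there than passed in the data, so the p needed to pass differed. The rates that follow describe the simulation only. The fit recovered 39% of 100 changes of 1.5-fold and 93% of 100 changes of 2-fold, with 4 false calls among 136. A gene that did not pass may still differ by such an amount.

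Positions, exonic lengths (protein-coding transcripts of the basic set) and overlaps come from GENCODE M21 (GRCm38), and promoters from RefSeq (GRCm38.p6). Members, lists and rules were chosen with earlier results of these data known. Named genes are all members, the wider clock genes (the values of a few are not reported here, though counts over the list include them), Lhx5 and the 3 genes most like Dbp and Arntl, and marker genes such as Ppp1r1b were named after their values were seen. Same-numbered libraries were taken as pairs because their deviations from group means correlated over genes at 0.139, 0.164 and 0.206, all above 0.1. The pairing comes from this check, not from a label, and replicate 2 of both groups was run in lane 4, the others in lane 2.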

Additional observations from a re-analysis of the deposited data

How the results depend on the processing

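There were 16 alternative fits. Of 16991 genes tested 548 were higher and 8290 lower with pan-neuronal scaling, against 3586 and 3943 in the main fit. With lane 2 alone 1297 were higher and 2538 lower of 17320 tested. When 1 library was left out, 2489 to 4139 genes were higher and 3263 to 4448 lower, of 17256 to 17688 tested. Of the members, 0 were higher and 8 lower with pan-neuronal scaling, 1 and 0 with lane 2 alone, and 1 to 2 and 0 to 2 when 1 library was left out. Members lower numbered 2 with library size alone, with at least 1 CPM in 3 libraries, with DESeq2 and without the third pair, Npas2 passing in each, and 3 with the replicate block. Over all genes 4336 of 16991 were lower with library size alone and 3352 of 14480 with at least 1 CPM in 3 libraries. Without the third pair 4649 of 17015 were lower, and with the block 4017 of 16991. DESeq2 called 4795 lower and 3630 higher, and 11508 were not called. With 10 members, 2 or 3 lie near these shares. Of the wider genes 0 were higher and 14 lower with pan-neuronal scaling, 2 were higher with lane 2 alone, and 3 to 7 when 1 library was left out. Pan-neuronal scaling, which lowers all genes alike, turned the sign of Csnk1e (-0.048), Nr1d2 (-0.083), Csnk1d (-0.20), Btrc (-0.075), Bhlhe41 (-0.29), Fbxw11 (-0.27), Timeless (-0.60), Bhlhe40 (-0.61), Csnk1a1 (-0.58) and Gsk3b (-0.38), of which the last 3 then passed as lower. The block changed no other call of a core gene than those of Npas2 and Per2. The Dbp to Arntl difference kept its sign in the 8 alternatives run. Lower counts without a library come with fewer samples, and the cause of other changes was not tested. Reads of overlapping genes, and the depth of genes such as Dbp, with 207 to 406 reads a library, limit precision.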
